A study of Mus musculus with 6 samples.

Results

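The core pluripotency factors were taken as 4 genes of the deposited gene table, Pou5f1, Sox2, Nanog and Sall4, chosen by symbol. All 4 were found among the 19467 symbols of the table, and all 4 were among the 14725 genes with enough reads to be tested. They were measured in E14Tg2A cells, a mouse embryonic stem line kept in serum with leukaemia inhibitory factor. One group received 5 nmol of an antisense oligonucleotide (ASO) directed at LINE1 retrotransposons, and the other the same amount of the RC ASO, which served as the control. Both were brought in by nucleofection, a form of electroporation. After 48 h, 300000 cells per sample were sorted by Lissamine fluorescence for RNA, with 3 libraries in each group. Whether replicates were separate cultures is not in the labels, and every p given here rests on a spread between libraries that may be technical.

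Pou5f1 encodes OCT4, a POU-domain transcription factor without which the inner cell mass does not form. Sox2 encodes a high mobility group factor that binds DNA beside OCT4 at composite elements. Nanog encodes a homeodomain factor that lets stem cells renew with less leukaemia inhibitory factor, and Sall4 a zinc finger protein that binds OCT4 and NANOG and recruits the histone deacetylase complex NuRD. The products of these genes occupy one another's regulatory DNA in embryonic stem cells, and the level of OCT4 in particular is known to be held within narrow bounds.

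Libraries held between 26633433 and 31704616 gene-assigned reads in the LINE1 ASO group and between 19954026 and 29092272 in the RC ASO group. The 6 L1Md repeats, the young LINE1 subfamilies of the mouse, summed to 7219, 3275 and 6585 CPM (reads scaled to library size, after scaling between libraries) in LINE1 ASO replicates 1, 2 and 3, against 7891, 3931 and 7781 CPM in RC ASO replicates 1, 2 and 3. Both replicate 2 libraries were thus the lowest of their group. Of the labelled cell type's defining markers, Pou5f1 was between 792 and 1103 CPM in all 6 libraries, whereas T, a gene of early mesoderm, stood at 16.2 ± 7.95 CPM in LINE1 ASO libraries and 23.3 ± 7.86 CPM in RC ASO libraries (SD, n = 3 each). Pou5f1 is itself a member under study, and T was the most abundant of the 8 mesendoderm markers listed.

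The 250 bases before the annotated start are given for the members with a RefSeq promoter entry, all on the plus strand of GRCm38.p6. Whether the factors bind these windows in the cells used here was not tested. The files themselves were made on mm9 and carry no coordinates. The windows lie at chr17:35505782-35506031 for the upstream start of Pou5f1, chr3:34649745-34649994 for Sox2 and chr6:122707239-122707488 for the upstream start of Nanog. Capitals mark exact matches, on either strand, to ATGCAAA, the core of the octamer bound by POU factors, and to CATTGT or CTTTGT, cores bound by SOX factors.
Pou5f1: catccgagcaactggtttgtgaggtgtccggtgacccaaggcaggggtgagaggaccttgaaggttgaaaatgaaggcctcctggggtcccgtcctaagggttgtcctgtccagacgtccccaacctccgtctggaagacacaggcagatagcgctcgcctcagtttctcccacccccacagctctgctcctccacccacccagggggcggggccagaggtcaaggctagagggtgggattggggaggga
Sox2: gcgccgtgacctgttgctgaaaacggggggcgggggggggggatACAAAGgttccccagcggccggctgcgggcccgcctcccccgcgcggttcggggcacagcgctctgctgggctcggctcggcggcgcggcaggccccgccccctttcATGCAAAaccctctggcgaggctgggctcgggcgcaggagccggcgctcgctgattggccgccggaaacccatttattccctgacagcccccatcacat
Nanog: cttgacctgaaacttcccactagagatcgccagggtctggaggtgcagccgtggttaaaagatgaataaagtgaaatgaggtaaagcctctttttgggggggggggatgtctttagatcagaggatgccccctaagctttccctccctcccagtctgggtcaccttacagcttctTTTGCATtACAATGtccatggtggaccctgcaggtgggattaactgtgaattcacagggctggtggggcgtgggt
In the Nanog window the octamer core began 75 bases before the start and was followed, 1 base on, by a SOX core that began 67 bases before the start. The matches did not overlap. The Sox2 window held an octamer core from 99 bases and a SOX core from 206 bases before the start, and the window of the upstream Pou5f1 start held neither. The window of the downstream Pou5f1 start (chr17:35508557-35508806, not printed) held a SOX core from 158 bases before that start and no octamer core. Of 32851 promoter windows of this length, 4.12% held the octamer core, 10.7% CATTGT, 16.5% CTTTGT and 1.30% the octamer core with either SOX core.

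Pou5f1 was the most abundant of the 4 and the member that fell. It stood at 806, 792 and 876 CPM in LINE1 ASO replicates 1, 2 and 3, against 1094, 978 and 1103 CPM in RC ASO replicates 1, 2 and 3. Every LINE1 ASO library lay below every RC ASO library, as was the case for 11.9% of all tested genes, while 28.7% did not overlap in either direction. The means were 824 ± 44.9 CPM in LINE1 ASO libraries and 1058 ± 70.2 CPM in RC ASO libraries (SD, n = 3 each). Pou5f1 fell to 77.9% of its RC ASO level, which is -0.36 ± 0.07 as a log2 fold change (SE, 95% interval -0.53 to -0.19, edgeR quasi-likelihood, BH-adjusted p = 0.0355, where BH is the Benjamini-Hochberg adjustment over all tested genes). It was the 1 member called at an adjusted p under 0.05, where 6.11% of all tested genes were called, 4.93% higher and 1.17% lower. The call was lost, with edgeR BH-adjusted p of 0.0753 to 0.132, without LINE1 ASO replicate 1 or 3 or without RC ASO replicate 1 or 3, although the log2 fold change stayed between -0.43 and -0.35. With library totals in place of scaling factors the edgeR BH-adjusted p was 0.0502 and the log2 fold change -0.28.

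Sox2 was lower by a smaller amount and missed the threshold. It stood at 390.5, 426 and 420.4 CPM in LINE1 ASO replicates 1, 2 and 3, against 469.96, 469 and 479 CPM in RC ASO replicates 1, 2 and 3. The groups again did not overlap, and the RC ASO libraries lay within 10 CPM of one another. Its log2 fold change was -0.20 ± 0.06 (SE, 95% interval -0.34 to -0.05, edgeR BH-adjusted p = 0.111). With the replicate number as a block, which takes up differences shared by libraries of the same number, it passed (edgeR BH-adjusted p = 0.00378). That fit called 33.7% of all tested genes, 17.6% higher and 16.1% lower. Sox2 also passed with DESeq2 (BH-adjusted p = 0.0341), which called 11% of all tested genes, 6.97% higher and 4.07% lower. Without both replicate 2 libraries, a choice made after the data were seen, its edgeR BH-adjusted p was 0.0246, and 20.5% of the genes tested were called.

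Nanog was the least abundant member, and in the LINE1 ASO group its libraries varied most, with a coefficient of variation of 24.0%, whereas in the RC ASO group Sall4 varied most (17.2%, against 7.86% for Nanog). It stood at 26.7, 43.7 and 36.1 CPM in LINE1 ASO replicates 1, 2 and 3, against 37.6, 43.5 and 42.8 CPM in RC ASO replicates 1, 2 and 3. Replicate 1 was the lowest and replicate 2 the highest library in each group, and the groups overlapped. The means were 35.5 ± 8.52 CPM in LINE1 ASO libraries and 41.3 ± 3.24 CPM in RC ASO libraries (SD, n = 3 each). The log2 fold change of -0.22 ± 0.17 (SE) had a 95% interval from -0.61 to 0.18, and neither the fit above (edgeR BH-adjusted p = 0.511) nor that with the replicate block (edgeR BH-adjusted p = 0.0579) called it. Its log2 fold change was nearer to 0, at -0.06, without LINE1 ASO replicate 1 and -0.43 without LINE1 ASO replicate 2.

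Sall4 gave nearly the same mean in both groups. It stood at 457, 336 and 412 CPM in LINE1 ASO replicates 1, 2 and 3, against 457, 326 and 434 CPM in RC ASO replicates 1, 2 and 3. Replicate 2 was the lowest library in each group, and replicate 1 the highest. The means were 401 ± 60.9 CPM in LINE1 ASO libraries and 406 ± 69.6 CPM in RC ASO libraries (SD, n = 3 each). The log2 fold change was -0.01 ± 0.15 (SE), changed sign to 0.07 with library totals, and had a 95% interval from -0.37 to 0.34 (edgeR BH-adjusted p = 0.970). A fall of the size seen for Pou5f1 lies inside that interval. With the replicate block, whose standard error was 0.04, Sall4 stood at -0.01 (edgeR BH-adjusted p = 0.844).

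**Figure D1:**
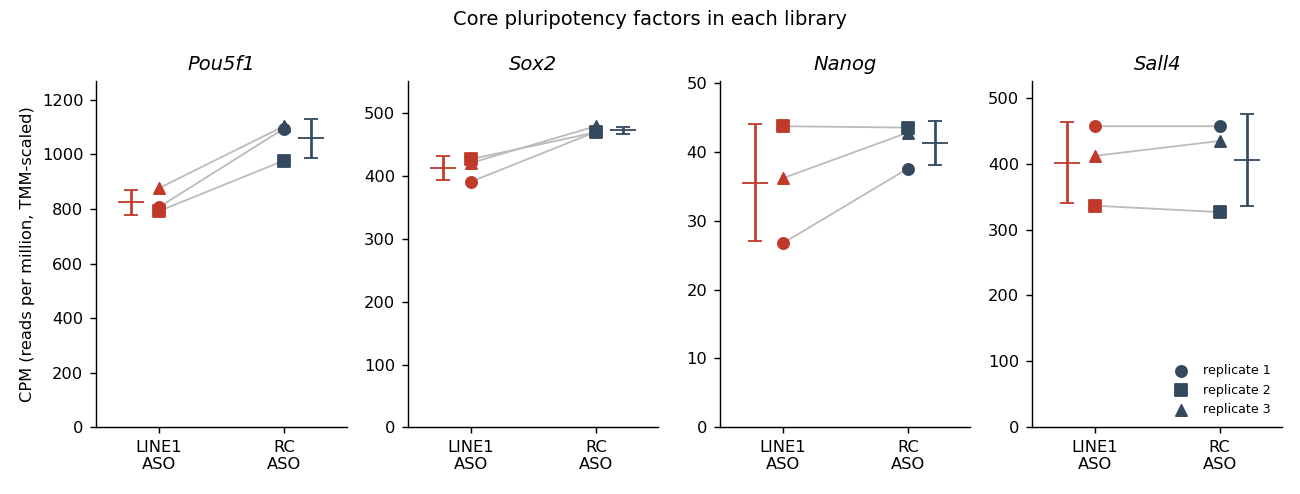
CPM of the 4 core factors in each library (y axis, after TMM scaling), with LINE1 ASO libraries left and RC ASO libraries right, grey lines joining libraries of the same replicate number, and bars giving the mean ± SD (n = 3 each). All LINE1 ASO points of Pou5f1 (792 to 876 CPM) and Sox2 (390.5 to 426 CPM) lie below all RC ASO points, whereas those of Nanog and Sall4 overlap.

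Levels between the genes were compared per kilobase of exon, with exon lengths of 1362 bases for Pou5f1, 2057 for Sox2, 2242 for Nanog and 5073 for Sall4 in GENCODE M21. Pou5f1 reached 605 ± 33.0 CPM per kilobase in LINE1 ASO libraries and 777 ± 51.5 in RC ASO libraries. Sox2 came next with 201 ± 9.37 and 229.8 ± 2.63 CPM per kilobase in LINE1 ASO and RC ASO libraries. Sall4 followed with 79.1 ± 11.996 CPM per kilobase in LINE1 ASO libraries and 80.0 ± 13.7 in RC ASO libraries, and Nanog with 15.8 ± 3.802 in LINE1 ASO libraries and 18.4 ± 1.45 in RC ASO libraries (SD, n = 3 each). The order was the same in both groups, and no neighbours in it overlapped in range within a group: Sox2 and Sall4, for example, spanned 189.8 to 207 and 66.3 to 90.0 CPM per kilobase in LINE1 ASO libraries.

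Libraries of the same replicate number gave log2 ratios of -0.44, -0.30 and -0.33 for Pou5f1 in replicates 1, 2 and 3, each LINE1 ASO over RC ASO. Sox2 gave -0.27, -0.14 and -0.19. Both genes were thus lower in 3 of 3 comparisons, as were 30.5% of all tested genes. Nanog gave -0.49, 0.0067 and -0.24, and Sall4 1.3e-05, 0.043 and -0.077. The ratio of Nanog in replicate 1 was the lowest of the 12, and its ratio in replicate 2 was close to 0.

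Abundant genes as a whole were lower in LINE1 ASO libraries, so each member was set beside the tested genes whose average log2 CPM lay within 0.25 of its own. The 63 genes of like abundance to Pou5f1 had a median log2 fold change of -0.19 (quartiles -0.27 and -0.11), 85.7% of them were below 0, and 6 were called, all lower. Pou5f1 lay 0.17 below that median, and 5 of the 63 genes had a lower value. The 170 genes of like abundance to Sox2 had a median of -0.13, from which Sox2 differed by -0.06, and 32.9% of them were lower than Sox2. In the fit with the replicate block 59.4% of those 170 genes were called. The call of Sox2 in that fit was therefore shared by most genes of its abundance.

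Sall4 stood on the other side of its surroundings. The 204 genes of like abundance had a median log2 fold change of -0.13, Sall4 lay 0.12 above it, and 76.5% of these genes were lower than Sall4. Among the 1176 genes of like abundance to Nanog the median was -0.0096 and 11.1% had a lower value than Nanog. Relative to genes of like abundance in the same pair of libraries, Pou5f1 was lower by log2 differences of -0.22, -0.15 and -0.12 in replicates 1, 2 and 3. The differences were -0.11, -0.048 and -0.049 for Sox2, -0.49, 0.0099 and -0.23 for Nanog, and 0.15, 0.13 and 0.057 for Sall4. These are descriptions of position and carry no test.

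**Figure D2:**
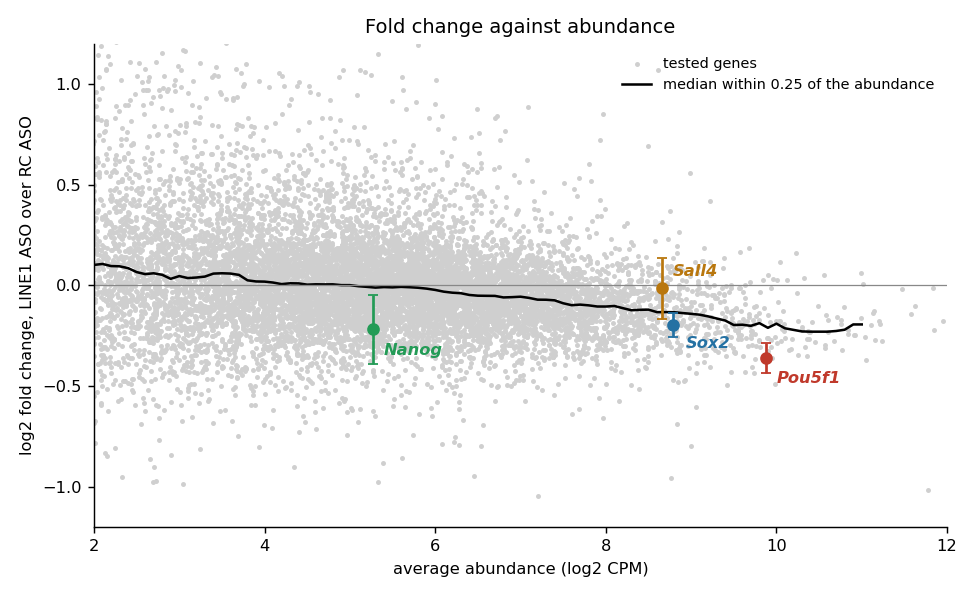
Log2 fold change of LINE1 ASO over RC ASO (y axis) against average abundance in log2 CPM (x axis) for tested genes in grey and the 4 core factors in colour with bars of ± 1 SE. The black line is the median of genes within 0.25 of each abundance, and 3784 genes outside 2 to 12 log2 CPM or beyond a log2 fold change of ± 1.2 are not drawn. Pou5f1 (-0.36) lies below the line, Sox2 (-0.20) close to it, Nanog (-0.22) below it and Sall4 (-0.01) above it.

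**Figure D3:**
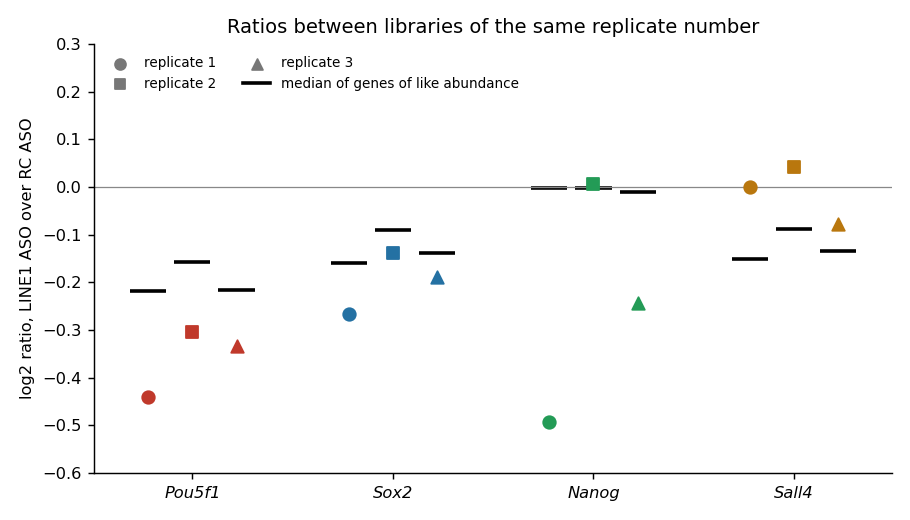
Log2 ratios of LINE1 ASO over RC ASO between libraries of the same replicate number (y axis) for each core factor (x axis), with a symbol for each replicate and a black bar for the median ratio of genes of like abundance in the same libraries. The Pou5f1 and Sox2 symbols lie below their bars in replicates 1, 2 and 3, the Sall4 symbols above theirs, and the Nanog symbols run from -0.49 in replicate 1 to 0.0067 in replicate 2.

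The spread between libraries of 1 group also set the members apart. The within-group SD of log2 CPM was 0.27 for Nanog, against a median of 0.12 for genes of like abundance, and 0.24 for Sall4, against 0.0995. These values exceeded those of 89.6% and 92.2% of the genes of like abundance. Pou5f1, with 0.088, lay at the median of its surroundings (0.089), and Sox2, with 0.050, below its own (0.105). Nanog, the rarest member, had 866 to 1356 reads in LINE1 ASO libraries and 721 to 1198 in RC ASO libraries.

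Ratios of read counts within a library do not depend on how libraries are scaled. Pou5f1 had 2.06, 1.86 and 2.083 times the reads of Sox2 in LINE1 ASO replicates 1, 2 and 3, against 2.33, 2.084 and 2.30 times in RC ASO replicates 1, 2 and 3. The groups were separated by the narrow gap between 2.083 and 2.084. Libraries of the same number differed in the log2 ratio by -0.17, -0.17 and -0.15, with a mean of -0.16 ± 0.01 (SD of 3 differences). Against Sall4, Pou5f1 had 1.77, 2.36 and 2.13 times the reads in LINE1 ASO replicates 1, 2 and 3, and 2.397, 2.996 and 2.54 times in RC ASO replicates 1, 2 and 3. The groups again did not overlap, and the log2 ratio was lower by 0.44, 0.35 and 0.26 in replicates 1, 2 and 3. For the other 4 pairs of members the groups overlapped, and the differences in log2 ratio, LINE1 ASO minus RC ASO, were 0.05 for Sox2 over Nanog, -0.12 for Pou5f1 over Nanog, -0.19 for Sox2 over Sall4 and -0.23 for Nanog over Sall4. The first, second and last of these 4 changed sign when 1 library was left out. No test was run on these ratios.

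**Figure D4:**
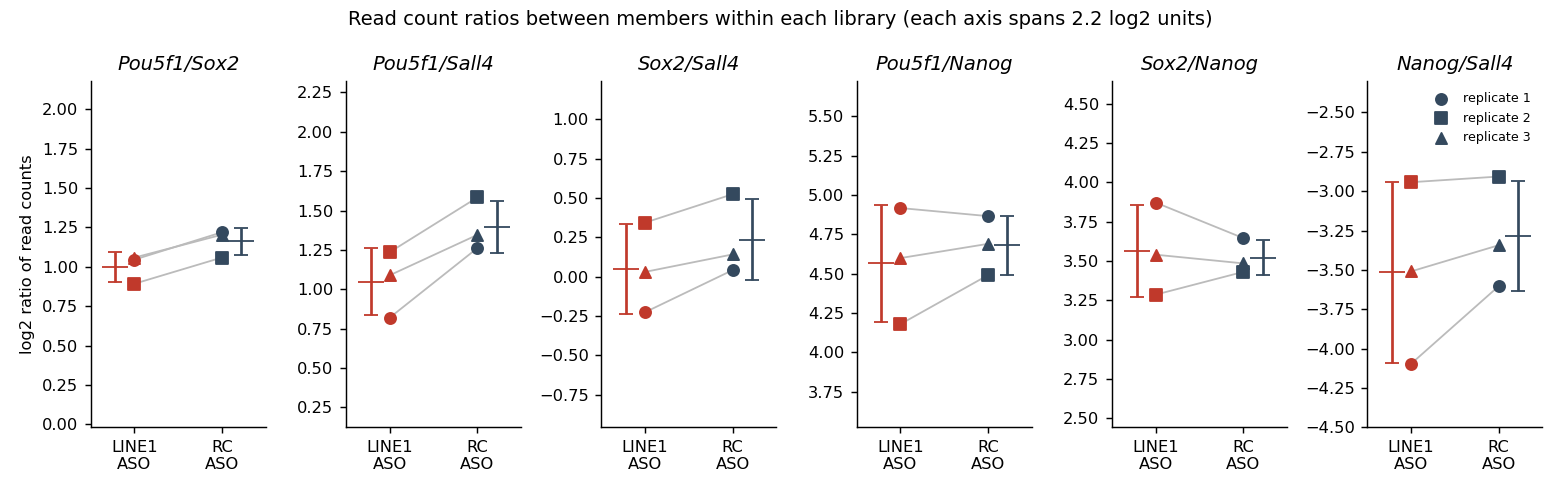
Log2 ratios of read counts between pairs of core factors within each library (y axes, each spanning 2.2 log2 units), with LINE1 ASO left and RC ASO right, grey lines joining libraries of the same replicate number and bars giving the mean ± SD (n = 3 each). The Pou5f1 over Sox2 and Pou5f1 over Sall4 ratios are lower in every LINE1 ASO library than in any RC ASO library, and the other 4 pairs overlap.

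The members did not share one profile over the 6 libraries. The root mean square difference between log2 CPM profiles, each centred on its mean, was smallest for Pou5f1 and Sox2 (0.11) and largest for Nanog and Sall4 (0.41). Replicate 2 libraries stood highest for Nanog and lowest for Sall4 in both groups. Over 9320 other genes of at least 10 CPM, the profiles nearest to Pou5f1 were those of Stmn2 (0.036), the chromatin remodeller gene Atrx (0.039) and Rbpms2 (0.042). Nearest to Sox2 were Urod, an enzyme gene of haem synthesis (0.010), 2900097C17Rik and Pafah1b3 (0.011 each). Nearest to Nanog were Rasgrp4 (0.047), Reep6 (0.058) and the mitochondrial carrier gene Ucp2 (0.062), and nearest to Sall4 the RNA helicase gene Ddx3x (0.015), Wdr74 (0.018) and Hnrpdl (0.019). With 6 libraries such distances order genes by likeness only.

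Genes next to the members on the chromosome were examined in turn. Of the 16 tested neighbours, 2 on each side by RefSeq gene order, 1 was called higher and 1 lower. Over all tested genes 6.11% were called, 4.93% higher and 1.17% lower. With the replicate block 2 neighbours were higher and 4 lower, where 33.7% of all tested genes were called. The added calls were Nfatc2, higher, and Cchcr1, Dppa3 and Slc2a3, lower. Atp9a, a flippase gene beside Sall4, rose to 77.5 ± 1.67 CPM in LINE1 ASO libraries, against 33.8 ± 1.72 CPM in RC ASO libraries (SD, n = 3 each), a log2 difference of 1.196 ± 0.07 (SE, edgeR BH-adjusted p = 0.00206). Atp11b, a further flippase gene beside Sox2, fell to 155 ± 13.6 CPM in LINE1 ASO libraries, against 213 ± 8.18 CPM in RC ASO libraries (log2 fold change -0.46 ± 0.08, SE, edgeR BH-adjusted p = 0.0225). The call of Atp11b was lost without LINE1 ASO replicate 3, RC ASO replicate 1 or RC ASO replicate 3. Around Nanog, in a cluster of genes active in pluripotent cells, Dppa3 stood at -0.57 ± 0.27, the glucose transporter gene Slc2a3 at -0.32 ± 0.33, Foxj2 at -0.13 ± 0.19 and Gdf3 at -0.02 ± 0.21 (log2 fold change ± SE), none of them called without the block. Sox2ot, the noncoding gene that spans Sox2, stood at 1.87 ± 0.38 CPM in LINE1 ASO libraries and 1.91 ± 0.91 CPM in RC ASO libraries (SD, n = 3 each).

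Of 20 tested partners and cofactors of the core factors 1 was called, lower, where 6.11% of all tested genes were called, 1.17% lower. The median log2 fold change of the 20 was -0.14. The median was 0.01 over all tested genes, but -0.11 for genes of like abundance to these partners, a comparison added after the lists' values were seen, in which the median of genes within 0.25 log2 CPM was taken for each list gene. The called gene was Wdr5, a shared subunit of histone H3 lysine methyltransferases that binds OCT4, at 256 ± 10.3 CPM in LINE1 ASO libraries and 309 ± 8.43 CPM in RC ASO libraries (SD, n = 3 each, log2 fold change -0.27 ± 0.06 SE). Its edgeR BH-adjusted p was 0.0476, and 0.112 with library totals, and it was called in 2 of the 6 fits with 1 library left out. With the replicate block 11 of the 20 were called, all lower, where on average 53.6% of genes of like abundance were called. Without both replicate 2 libraries 5 were called, near the 20.5% of all genes called there. Of 14 NuRD subunits none was called by the edgeR quasi-likelihood test without the block. DESeq2 called 1 of the 14, beside 11% of all tested genes. An unadjusted p under 0.05 was found for 2 of the 14, where 22.1% of all tested genes had one. The deacetylase gene Hdac1 had the smallest p, with a log2 fold change of -0.23 ± 0.06 (SE, edgeR BH-adjusted p = 0.0779). With the block 4 NuRD genes were lower and 1 higher, where on average 46.8% of genes of like abundance were called.

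Genes known as targets of OCT4, SOX2 or NANOG moved in both directions. Of 20 tested, 4 rose and 1 fell, where 4.93% of all tested genes were called higher and 1.17% lower. The median log2 fold change was -0.12, against -0.10 for genes of like abundance. Fbxo15, an F-box gene read as a reporter of pluripotency, rose to 259 ± 27.1 CPM in LINE1 ASO libraries, against 92.5 ± 8.23 CPM in RC ASO libraries (SD, n = 3 each). Its log2 fold change was 1.48 ± 0.10 (SE, edgeR BH-adjusted p = 0.00217), and the call held in all 6 fits with 1 library left out. The Nodal antagonist genes Lefty1 and Lefty2 rose by log2 fold changes of 1.02 ± 0.18 and 0.83 ± 0.15 (SE), with edgeR BH-adjusted p of 0.0239 and 0.0261. Trp53inp1, known also as a target of p53, rose by 1.07 ± 0.24 (edgeR BH-adjusted p = 0.0439). Spp1, which encodes the secreted protein osteopontin and is named after its values were seen, fell by 0.41 ± 0.09 on the log2 scale (SE, edgeR BH-adjusted p = 0.0451). Lefty1, Lefty2, Trp53inp1 and Spp1 each passed in 2 of the 6 fits with 1 library left out, losing the call without LINE1 ASO replicate 1 or 3 or RC ASO replicate 1 or 3. Spp1 also lost it with library totals, and Trp53inp1 with the replicate block. With the block 4 of the 20 genes were higher and 9 lower, where on average 51.7% of genes of like abundance were called. Without both replicate 2 libraries 5 were higher and 9 lower, where 20.5% of all genes tested were called.

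Naive factors, the transcription factors and marker genes of the ground state, gave 1 called gene in 12 tested. The share called over all tested genes was 6.11%. The called gene was again Fbxo15, which is also on the target list. Zfp42 is on the target list too, and Esrrb, Nr0b1 and Nr5a2 are among the partners and cofactors. The lists are thus not separate observations. The 11 naive genes other than Fbxo15 all had log2 fold changes below 0, with RLE factors and library totals too. The list median was -0.27 (-0.19 with library totals). Over all tested genes 49.0% were below 0, and among genes of like abundance to the naive factors 67.6% were on average, with a median of -0.07. Esrrb, a nuclear receptor gene that shares targets with Nanog, had 378, 583 and 515 CPM in LINE1 ASO replicates 1, 2 and 3, against 553, 708 and 661 CPM in RC ASO replicates 1, 2 and 3. Each library was lower than its counterpart of the same number, but the groups overlapped (log2 fold change -0.38 ± 0.16 SE, edgeR BH-adjusted p = 0.221). Klf5, a Krüppel-like factor gene, stood at 149 ± 13.6 CPM in LINE1 ASO libraries and 189 ± 14.1 CPM in RC ASO libraries without overlap (SD, n = 3 each, log2 fold change -0.34 ± 0.09 SE, edgeR BH-adjusted p = 0.0744). Esrrb and Klf5 were named after their values were seen. With the block 8 naive genes were lower and 1 higher, where on average 45.5% of genes of like abundance were called. Without both replicate 2 libraries 6 were lower and 1 higher, where 20.5% of all genes tested were called.

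Related genes of the POU, SOX and SALL families were few and mostly rare. Of 9 tested POU genes 2 rose, where 4.93% of all tested genes were called higher. Both passed the count filter only through the LINE1 ASO libraries, where they were high. The count of 2 in 9 can therefore not be read against that share. Pou4f3, a gene of sensory neurons, had 79, 47 and 48 reads in LINE1 ASO replicates 1, 2 and 3, against 7, 7 and 11 in RC ASO replicates 1, 2 and 3 (log2 fold change 2.48 ± 0.31 SE, edgeR BH-adjusted p = 0.00640). Pou3f3, a neural gene, had 23, 11 and 14 reads in LINE1 ASO replicates 1, 2 and 3, against 0, 0 and 3 in RC ASO replicates 1, 2 and 3, and lost its call in 4 of the 5 fits with 1 library left out that tested it. With the replicate block 4 POU genes were higher and 1 lower, where on average 30.8% of genes of like abundance were called. Of 15 tested SOX genes none was called by the edgeR quasi-likelihood test without the block. An unadjusted p under 0.05 was found for 6 (22.1% of all tested genes had one), and DESeq2 called 1 (11% of all tested genes). With the block 3 SOX genes were higher and 3 lower, where on average 29.3% of genes of like abundance were called. Without both replicate 2 libraries 2 SOX genes were higher and 2 lower, where 20.5% of all genes tested were called. Sox12 had the smallest p, with a log2 fold change of -0.36 ± 0.11 (SE, edgeR BH-adjusted p = 0.106). Of the 3 SALL paralogues none was called by edgeR without the block or by DESeq2, and none had an unadjusted p under 0.05. With the block Sall1 was lower (edgeR BH-adjusted p = 0.0149) and Sall2 higher (edgeR BH-adjusted p = 0.0155). That fit called on average 35.2% of genes of like abundance to the 3 paralogues. Sall1, the most abundant of them, stood at 199.9 ± 18.1 CPM in LINE1 ASO libraries and 233 ± 38.8 CPM in RC ASO libraries (SD, n = 3 each).

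**Figure D5:**
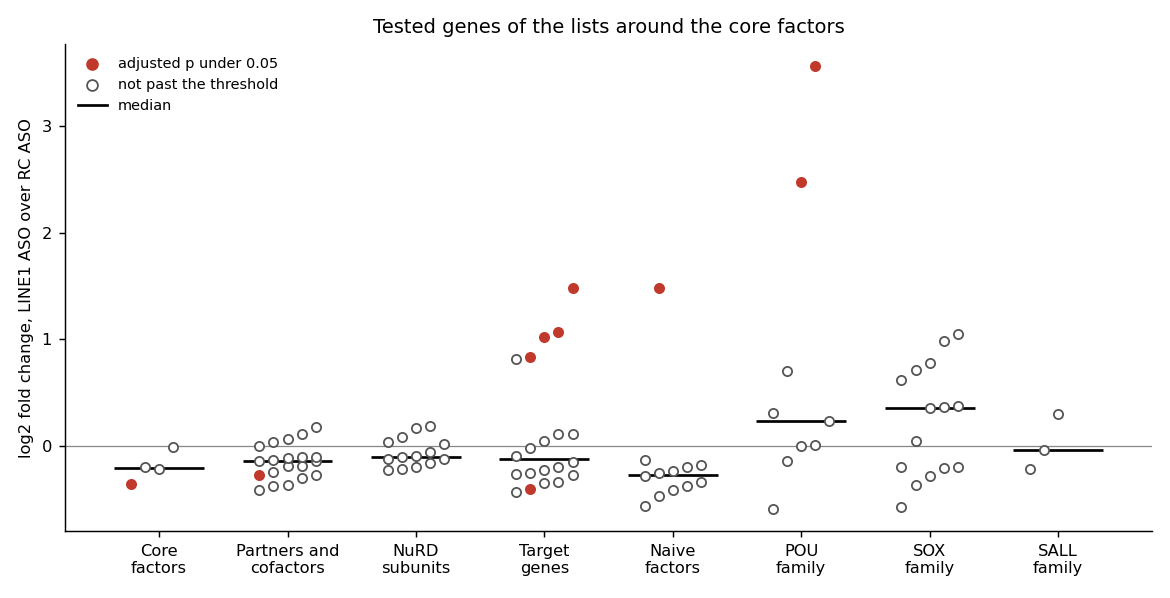
Log2 fold change of LINE1 ASO over RC ASO (y axis) for each tested gene of the core factors and of the lists around them (x axis), filled where the adjusted p was under 0.05 (edgeR quasi-likelihood test, Benjamini-Hochberg adjustment) and open otherwise, with a line at each list's median. The naive factors lie below 0 apart from Fbxo15 at 1.48, and the target genes hold 4 filled points above 0 and 1 below.

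Markers of 2-cell-like cells, a rare state of stem cell cultures with low OCT4 protein, moved with the group. All 8 tested genes of 10 listed rose, where 4.93% of all tested genes were called higher. The list was chosen with earlier results of these data known, so this count is no test. Dux and Tdpoz4 passed the count filter only through the LINE1 ASO libraries, where they were high. The summed level of the listed genes in the table was 247, 95.7 and 122 CPM in LINE1 ASO replicates 1, 2 and 3. In RC ASO replicates 1, 2 and 3 it was 10.9, 10.3 and 8.35 CPM. Without RC ASO replicate 1 or without RC ASO replicate 3, 5 of the 8 were called. Those fits called 171 and 162 genes in all. Several of the 8 are near-identical copies (the Zscan4 and Tcstv genes), so the division of reads among them is uncertain. In these bulk libraries fewer cells with Pou5f1 RNA and less of it per cell cannot be told apart, and the part of 2-cell-like cells in the lower Pou5f1 was not tested. Of 8 tested primitive endoderm markers 1 rose (Pdgfra) and 1 fell (Lama1). Over all tested genes 4.93% were called higher and 1.17% lower. DESeq2 called 2 of the 8, beside 11% of all tested genes. With the replicate block 2 were higher and 2 lower, where on average 29.0% of genes of like abundance were called. The sum of these markers ranged from 85.7 to 93.2 CPM in LINE1 ASO libraries and from 112 to 119 CPM in RC ASO libraries. Most of that difference lay in Lama1, with 34.7 CPM in LINE1 ASO libraries against 62.8 CPM in RC ASO libraries, whereas 3 of the 8 genes were below 0 and the list median was 0.25. Without 1 library Pdgfra kept its call in 2 of 6 fits and Lama1 in 3 of 6. Of 8 trophectoderm, 10 primed epiblast, 5 mesendoderm, 5 neuroectoderm and 4 fibroblast markers tested none was called by edgeR without the block. Unadjusted p values under 0.05 were found for 3, 2, 0, 0 and 1 of them, beside 22.1% of all tested genes. DESeq2 called 2, 1, 0, 0 and 0 of these markers, beside 11% of all tested genes. With the replicate block, which called 33.7% of all tested genes, 4, 4, 0, 1 and 1 were higher and 1, 1, 0, 0 and 2 lower. With library totals 1 primed epiblast marker was called. Their sums were 286 to 334, 679.8 to 921, 20.6 to 37.6, 121 to 137 and 34.0 to 45.5 CPM in LINE1 ASO libraries, against 275 to 319, 681 to 1040, 24.7 to 40.8, 106 to 136 and 38.5 to 52.3 CPM in RC ASO libraries, in the order of the lists just given. No marker in the table was at 0 in all 6 libraries.

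Reads of Nanog could in part come from other genes. Of the 50-base sequences of its longest GENCODE M21 transcript, 4.67% occurred in transcripts of 24 other genes, with Nanog-ps1 holding the most (2.78%). The share was 0.990% for Pou5f1, all with Gm5712, which had 3 to 5 reads in LINE1 ASO libraries and 4 to 9 in RC ASO libraries, and 0% for Sox2 and Sall4. Antisense genes overlapped 21.4% of the Pou5f1 exons (Gm19553) and 5.72% of the Sall4 exons (Gm14261). The strand setting of the counting is not given in the sources used here, so reads of these partners cannot be told apart from those of Pou5f1 and Sall4.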

How the data were processed

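Both tables hold raw read counts, deposited by the authors with 1 column per library, per gene symbol and per repeat name. The submitters' processing notes name the build mm9 and, as tools, DESeq2 1.12.3, R 3.3.0, HTSeq 0.6.1p1 and TopHat2 2.0.9. The annotation, the strand setting and the handling of multi-mapping reads were not given in the sources used here. The kit marks strand, per the labels' protocols.

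The tests were run in edgeR 4.0.16 (limma 3.58.1, R 4.3.3). Genes kept by filterByExpr (minimum count 10, minimum total 15) were scaled by TMM and compared with robust quasi-likelihood F tests, with Benjamini-Hochberg adjustment over all 14725 genes and a threshold of 0.05. Each SE was derived from the log2 fold change and its F statistic. Other settings tried were library totals, RLE factors, DESeq2 1.42.0, no count filter, a 1 CPM filter, the replicate block and each library left out. The edgeR step was tested on simulated data.

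Both groups number replicates 1 to 3. Same-numbered libraries deviated together from their group means (correlations of 0.39, 0.63 and 0.35 for numbers 1, 2 and 3). The numbers were treated as pairs only in the fit with the replicate block and in the same-number ratios and differences. The main fit compared the groups without a replicate term. LINE1 ASO replicate 1 with RC ASO replicate 3 (0.21) and LINE1 ASO replicate 3 with RC ASO replicate 1 (0.11) were also positive.

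Members and lists were chosen with earlier results of these data known. Named genes are the 4 members, the 3 nearest profiles of each, up to 4 called genes of each list (or the one with the smallest p), and tested neighbours. Spp1, a called target beyond the 4, and Esrrb and Klf5, not called, were named after their values were seen. Nearest profiles used log2 CPM with a prior count of 0.5. Of tested genes 89.5% had a RefSeq symbol for gene order (GRCm38.p6).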

Additional observations from a re-analysis of the deposited data

How the results depend on the processing

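Pou5f1 and Sox2 were lower under every alternative run, and so was Nanog. Pou5f1 was not called with library totals (-0.28) or in the fits without LINE1 ASO replicate 1 or 3 or RC ASO replicate 1 or 3, and its log2 fold change with 1 library left out ranged from -0.44 to -0.35. Sox2 passed with DESeq2 (-0.22), with the replicate block (-0.20) and without both replicate 2 libraries (-0.23), the last chosen after the data were seen, and ranged from -0.26 to -0.18 with 1 library left out. Nanog ranged from -0.43 to -0.06 with 1 library left out. Sall4 turned to 0.068 with library totals and ranged from -0.17 to 0.062 with 1 library left out, above 0 without LINE1 ASO replicate 2 or RC ASO replicate 1 or 3. The cause was not tested.

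The number of members called was 1, and 0 with library totals, 2 with DESeq2, the replicate block or without both replicate 2 libraries, and 0 to 1 with 1 library left out. Over all genes 899 were called (726 higher, 80.8%). DESeq2 called 1625 (63.1% higher), the replicate block 4964 (52.2% higher) and the fit without both replicate 2 libraries 3039, and 162 to 1520 were called with 1 library left out. With library totals 981 of 1031 were higher (95.2%), and the centre of all genes moved to 0.09 (log2, median). The block changed no call of a member other than Sox2. The block also added calls among list and neighbouring genes, given beside each list. Differences in log2 ratio between members moved by less than their pooled within-group SD with 1 library left out, but for each pair other than Sox2 over Nanog by more than the SD of the 3 same-number differences, and 3 of the 6 changed sign (Pou5f1 over Nanog, Sox2 over Nanog and Nanog over Sall4).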
